A study of Drosophila melanogaster with 12 samples.

Results

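Dichaete, the transcription factor encoded by D, together with the POU factor gene vvl and the secreted ligand gene sli, was followed across 12 two-colour arrays of Drosophila melanogaster embryos. The members were all probes annotated to D, vvl or sli on the array. Each gene had 1 probe, so the members are 3 of the 14485 probes and 3 of the 11980 named genes measured. Embryos of all groups came from simGal4 females crossed to males carrying a UAS transgene and were collected at 3.5 to 4.5 h, stage 8 to 9, at 25 °C. Per the labels, the driver was used to express the transgene in the ventral midline, the row of cells along the middle of the embryo that later forms midline glia and neurons. The groups were embryos with the UAS constructs EnRep, DichaeteWT (Dichaete wild type in the labels) and HMG-minus (HMG- in the labels), with 4 biological replicates each. Each replicate was hybridised on its own array against embryos in which the same driver expressed UAS GFP, so the driver was shared by both sides of every ratio. The labels do not state how EnRep and HMG-minus were built, and the series' design text calls the compared constructs dominant negative. The construct RNA carried Cy3 on replicates 1 and 2 and Cy5 on replicates 3 and 4, which makes dye and replicate number inseparable.

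Dichaete belongs to the SoxB group, whose members bind DNA through an HMG domain and often act together with POU factors. In the embryonic ventral midline it is known to work with Ventral veins lacking, the POU protein encoded by vvl and also called Drifter, and with the bHLH-PAS protein Single-minded and its partner Tango. sli is a known target of this set of factors and encodes Slit. It is secreted by midline cells and repels axons that carry Robo receptors.

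Whole embryos were measured, so ratios describe all tissues that express a gene and not the midline alone, and fewer cells of a type cannot be told apart from less RNA per cell. D and vvl are known to be expressed outside the midline as well. The driver's own gene, sim, had no named probe among those analysed here, so the amount of driver activity was not read. No probe sequence was given for the members, and RNA of the D gene cannot be told apart from RNA of a D transgene. In the following, a ratio is log2 of the construct channel over the GFP channel after background correction and loess normalisation within the array. A change was called where limma's p-value, after Benjamini-Hochberg adjustment across the 14485 probes, was below 0.05.

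The arrays had median foreground intensities of 247 to 433 in Cy3 and 280 to 421 in Cy5, over median local backgrounds of 71 to 130 and 112 to 196. All 3 member spots were accepted by the spot finder in both channels on all 12 arrays. The D spot was the brightest over its background, with a foreground 7.58 to 38.5 times the local background and a median of 18.3. The sli spot had 2.02 to 9.14 times (median 4.25) and the vvl spot 2.43 to 6.93 times (median 3.52). EnRep replicate 4 and DichaeteWT replicate 2 stood apart in genes of later muscle and cuticle, a list of 11 genes of which 8 were measured. The list's median ratio was 1.32 on EnRep replicate 4 and 1.41 on DichaeteWT replicate 2, against -0.59 to 0.32 on the other arrays. Results are therefore also given without these 2 arrays where that changes a call.

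D was higher in DichaeteWT embryos than in GFP embryos after the dye was accounted for. The 4 DichaeteWT ratios of D were 0.97 and 1.09 with the construct in Cy3 and -0.06 and -0.14 with the construct in Cy5. The arrays of 1 orientation therefore lay near 1 log2 unit, and those of the other just below 0. With a dye term in the model, D rose in DichaeteWT embryos by 0.47 log2, or 1.38-fold (SE 0.08, 95% interval 0.30 to 0.64, n = 4, limma adjusted p = 0.0208). D was thus 1 of the 3 members called in DichaeteWT embryos, where 0.863% of all probes were called in either direction and 0.38% upward. Its difference was larger in size than that of 98.0% of the probes.

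In EnRep embryos D had ratios of 0.68 and 0.71 with the construct in Cy3 and 0.08 and 0.01 with the construct in Cy5. All 4 were above 0, by little in the second orientation. The fitted value was 0.37 log2, or 1.29-fold (SE 0.08, 95% interval 0.20 to 0.54, n = 4), and did not pass (limma adjusted p = 0.0553). It was 0.12 log2 with median centring (limma adjusted p = 0.475) and 0.20 log2 with the authors' deposited ratios (0.178). In HMG-minus embryos the ratios of D were 0.58 and 0.71, then -0.28 and -0.24, again split by dye. The fitted value was 0.19 log2 (SE 0.08, 95% interval 0.02 to 0.36, n = 4, limma adjusted p = 0.317). None of the 3 members was called in EnRep or in HMG-minus embryos, where 0.753% and 0.856% of all probes were called. Over the 9 limma tests of the members against GFP, 5 had an unadjusted p below 0.05 and 1 was called. Of all 14485 probes, 2038 in EnRep, 2253 in DichaeteWT and 1884 in HMG-minus embryos had an unadjusted limma p below 0.05. The 9 tests come from 3 probes, each with 1 dye term and 1 variance, and are not independent.

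**Figure D1:**
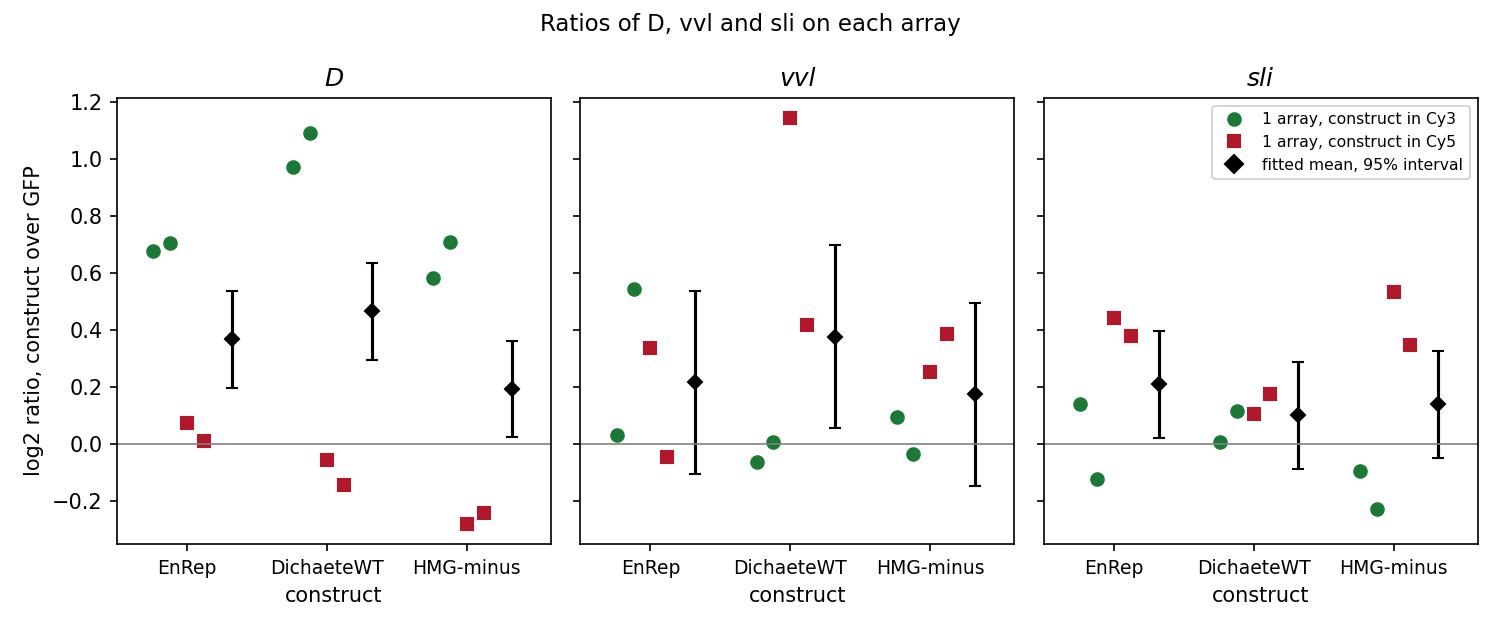
Log2 ratio of construct over GFP for D, vvl and sli on each of the 12 arrays, by construct, with the dye of the construct marked. The 6 Cy3 arrays of D lie between 0.58 and 1.09 and the 6 Cy5 arrays between -0.28 and 0.08, while vvl and sli lie higher on most Cy5 arrays.

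Taking the arrays by orientation, D ranged from 0.58 to 1.09 on the 6 arrays with the construct in Cy3 and from -0.28 to 0.08 on the 6 with it in Cy5, with no overlap. The fitted gap, Cy3 minus Cy5 orientation, was 0.90 log2 (SE 0.09, 95% interval 0.70 to 1.09, limma adjusted p of the dye term 8.03e-05). That gap was larger than the gap of 98.4% of the probes, whose median size was 0.22, and the dye term was called for 33.1% of all probes. With the dye left in, D was above 0 on 8 of 12 arrays. Once the dye term was removed, D was above 0 on 12 of 12 arrays, between 0.14 and 0.64 with a median of 0.28. The dye term was fitted to these same ratios, so the second count largely follows from the fit. It gives the fitted values no separate support.

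**Figure D2:**
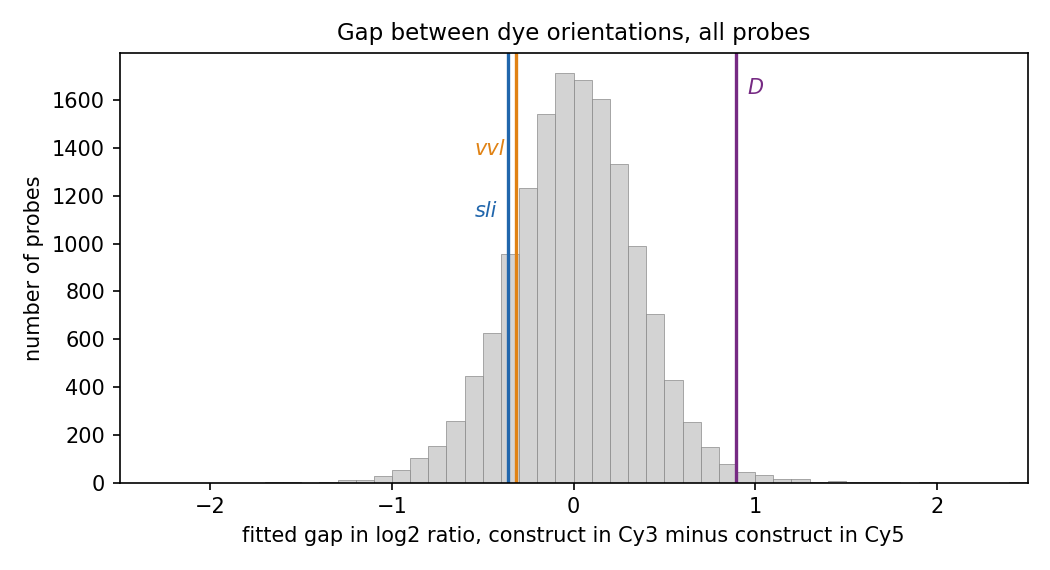
Fitted gap in log2 ratio between the 2 dye orientations, Cy3 minus Cy5, for all 14485 probes, with D, vvl and sli marked. D lies at 0.90, while sli, at -0.36, and vvl, at -0.32, lie on the other side of 0. In size the gap of D exceeds that of 98.4% of the probes, that of sli 71.3% and that of vvl 65.7%.

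The channels show the same split. DichaeteWT embryos had normalised log2 signals of D of 11.06 and 11.39 in Cy3, against 10.09 and 10.30 in Cy5 for the GFP embryos on the same arrays. With the dyes exchanged, DichaeteWT embryos had 10.88 and 11.02 in Cy5, against 10.94 and 11.16 in Cy3 for GFP embryos. Signals can also be read in 1 dye at a time, which sets different arrays side by side. In DichaeteWT embryos D was then 0.17 above GFP in Cy3 and 0.76 above it in Cy5 (2 arrays each). In EnRep embryos the differences were 0.47 and 0.27, and in HMG-minus embryos 0.35 and 0.03. The 2 dyes thus gave unequal differences within each construct. Over all constructs the Cy3 signal of D averaged 11.43 ± 0.28 in construct embryos and 11.10 ± 0.10 in GFP embryos (SD, n = 6 arrays each). The Cy5 signal averaged 10.99 ± 0.17 in construct embryos and 10.64 ± 0.42 in GFP embryos. The pooled differences were 0.33 within Cy3 and 0.35 within Cy5, and the second is smaller than the SD of the GFP signals. These channel means are the ones behind the fitted mean of the 3 constructs and give it no separate support.

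**Figure D3:**
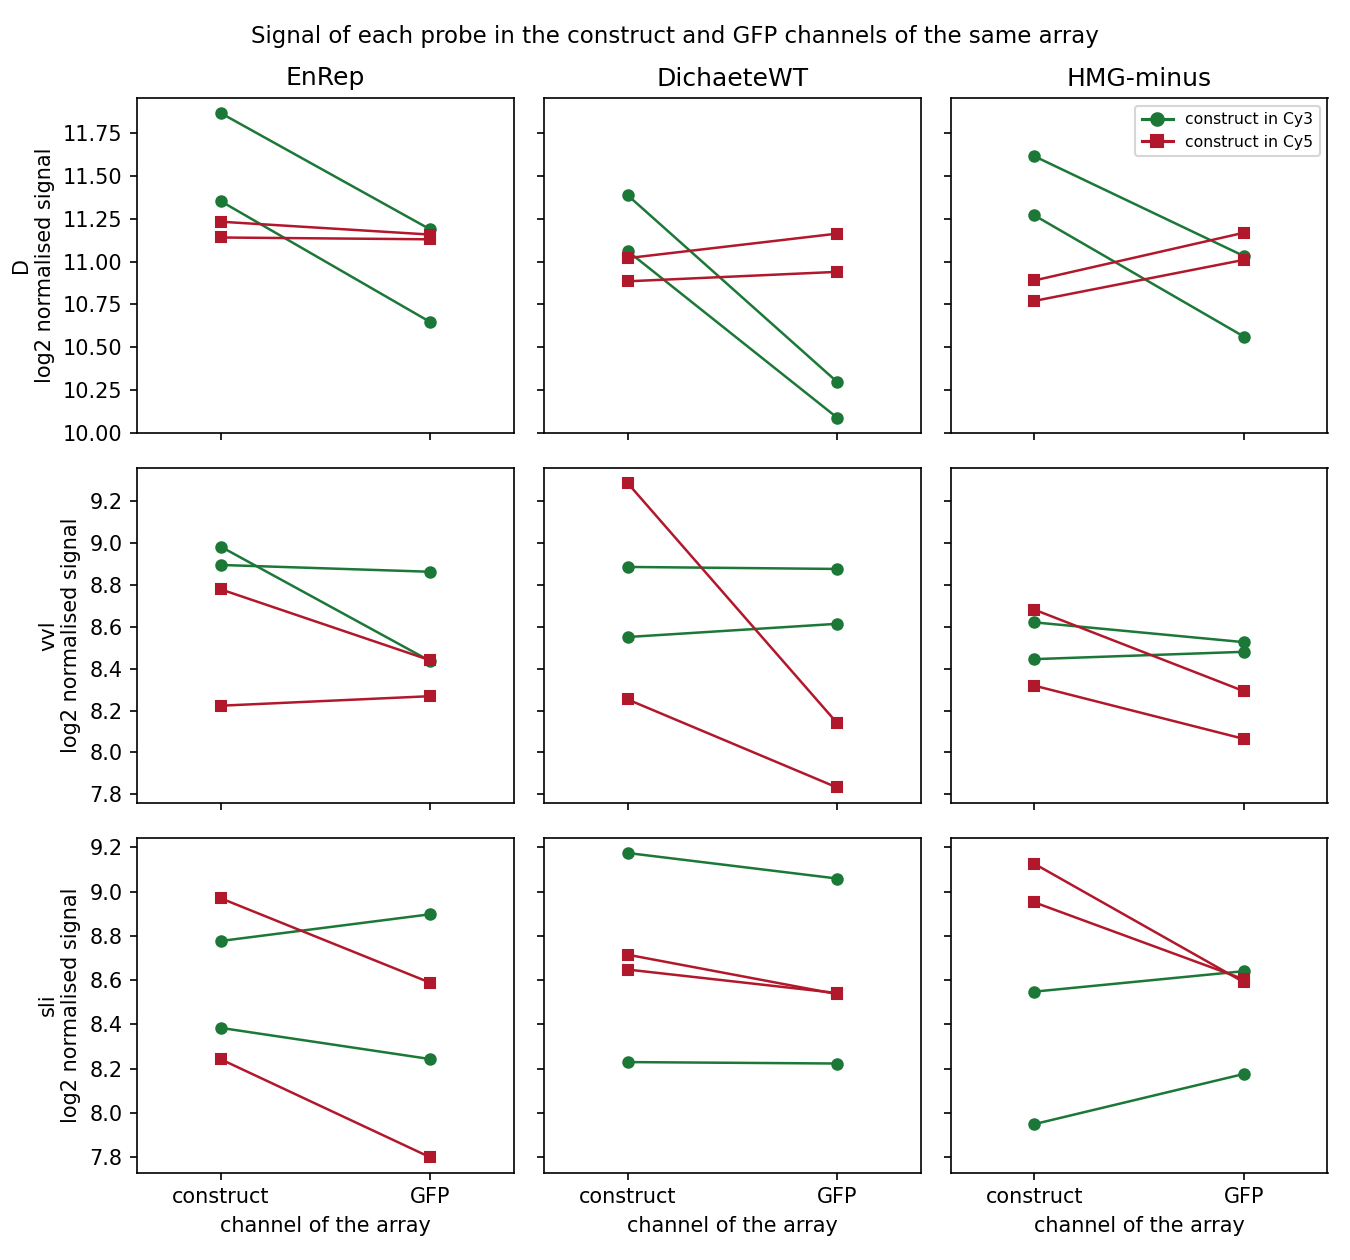
Normalised log2 signal of D, vvl and sli in the construct channel and in the GFP channel of each array, by dye. D is the member with the highest signals, from 10.77 to 11.87 in construct embryos and from 10.09 to 11.19 in GFP embryos.

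Over the 3 constructs together, D was the member that stood above GFP. Its mean over the constructs rose by 0.34 log2, or 1.27-fold (SE 0.05, 95% interval 0.25 to 0.44, 12 arrays, limma adjusted p = 0.000967). In this comparison 10% of all probes were called in either direction and 5.13% upward, and D was the 1 member called. The mean of vvl was 0.26 log2 (SE 0.09, 95% interval 0.07 to 0.44, limma adjusted p = 0.0756) and that of sli 0.15 log2 (SE 0.05, 95% interval 0.04 to 0.26, limma adjusted p = 0.074). Both intervals lie above 0, and neither value passed the adjustment. Loess normalisation by print-tip group moved both past the threshold, at 0.24 log2 for vvl (limma adjusted p = 0.039) and 0.14 log2 for sli (0.0363). Median centring kept the call of D but gave 0.20 log2 (limma adjusted p = 0.0304).

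The call of D in DichaeteWT embryos depended on single arrays, on the normalisation and on the model. It was lost without DichaeteWT replicate 1 (0.44 log2, limma adjusted p = 0.129), 2 (0.40, 0.132) or 3 (0.49, 0.0571), without both arrays rich in later muscle and cuticle genes (0.40, 0.0724), and with median centring (0.34, 0.114). At the same 0.47 log2, it was also lost with no dye term (limma adjusted p = 0.621), with a replicate block in place of the dye term (0.0549), in a fit of the 4 DichaeteWT arrays (0.0746) and with a variance prior that was trended and robust (0.1). The value itself stayed between 0.34 and 0.53 over all alternatives.

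vvl is also required for branching of the trachea, and its protein binds octamer-like DNA with a POU domain. It was above GFP on 9 of 12 arrays, and on 11 of 12 once the dye term was removed, without passing in any construct. The second count rests on a dye term fitted to the same ratios and is no separate support. In DichaeteWT embryos its ratios were -0.06, 0.01, 1.14 and 0.42 on replicates 1 to 4. Replicate 3 thus lay far above the other 3 arrays, and the replicates with the construct in Cy3 were near 0. The fitted value was 0.38 log2, or 1.30-fold (SE 0.15, 95% interval 0.06 to 0.70, n = 4, limma adjusted p = 0.247), and 0.15 log2 without replicate 3.

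EnRep embryos had vvl ratios of 0.03, 0.55, 0.34 and -0.05, and HMG-minus embryos 0.09, -0.03, 0.25 and 0.39. In both constructs 3 of 4 arrays were above GFP, and the arrays of the 3 constructs overlapped. The fitted values were 0.22 log2 in EnRep embryos (SE 0.15, 95% interval -0.10 to 0.54, limma adjusted p = 0.539) and 0.18 log2 in HMG-minus embryos (SE 0.15, 95% interval -0.15 to 0.50, limma adjusted p = 0.688; n = 4 each). The EnRep value was 0.035 log2 without EnRep replicate 2 and 0.38 log2 without EnRep replicate 4. The residual SD of vvl was 0.34 log2, higher than that of 91.3% of the probes, against 0.13 for D, 0.16 for sli and a median of 0.19 for all probes. The dye gap of vvl ran opposite to that of D, at -0.32 log2 (SE 0.17, 95% interval -0.69 to 0.05), and its dye term did not pass (limma adjusted p = 0.171). Read within 1 dye, the vvl signal averaged 8.73 ± 0.22 in construct embryos and 8.17 ± 0.21 in GFP embryos in Cy3 (SD, n = 6 each). In Cy5 it averaged 8.59 ± 0.41 in construct embryos and 8.63 ± 0.19 in GFP embryos. The 2 dyes thus gave differences of 0.56 and -0.04.

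sli, the gene for the axon repellent, was not called in any construct. In DichaeteWT embryos its ratios were 0.01, 0.12, 0.11 and 0.18. All 4 were above 0 and lay close together (SD 0.07) with the dye left in. Once the dye term was removed, they were 0.19, 0.30, -0.07 and -0.0026 (SD 0.17). The fitted value was 0.10 log2 (SE 0.09, 95% interval -0.09 to 0.29, n = 4, limma adjusted p = 0.611), and 0.029 log2 without DichaeteWT replicate 2, 0.069 without replicate 1 and 0.17 without replicate 3. The upper bound of the interval, 0.29 log2, is below the fitted rise of D in the same embryos, but sli was not tested against D.

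In EnRep embryos the sli ratios were 0.14 and -0.12 with the construct in Cy3 and 0.44 and 0.38 with it in Cy5. In HMG-minus embryos they were -0.09 and -0.23, then 0.53 and 0.35. In both constructs the Cy5 arrays were the higher ones. The fitted values were 0.21 log2, or 1.16-fold, in EnRep embryos (SE 0.09, 95% interval 0.02 to 0.40, limma adjusted p = 0.299) and 0.14 log2 in HMG-minus embryos (SE 0.09, 95% interval -0.05 to 0.33, limma adjusted p = 0.538; n = 4 each). The EnRep value had an unadjusted p of 0.0303 and was larger in size than that of 84.3% of the probes. The HMG-minus value was 0.061 log2 without HMG-minus replicate 3 and 0.21 log2 without replicate 2. The dye term of sli was called (limma adjusted p = 0.0152), with a gap of -0.36 log2, Cy3 minus Cy5 orientation (SE 0.10, 95% interval -0.58 to -0.14), opposite in sign to that of D. Within Cy3 the sli signal averaged 8.51 ± 0.43 in construct embryos and 8.44 ± 0.32 in GFP embryos. Within Cy5 it averaged 8.78 ± 0.31 in construct embryos and 8.54 ± 0.38 in GFP embryos (SD, n = 6 arrays each). The pooled differences of 0.07 and 0.24 cover opposite values in HMG-minus embryos, at -0.35 in Cy3 and 0.63 in Cy5.

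**Figure D4:**
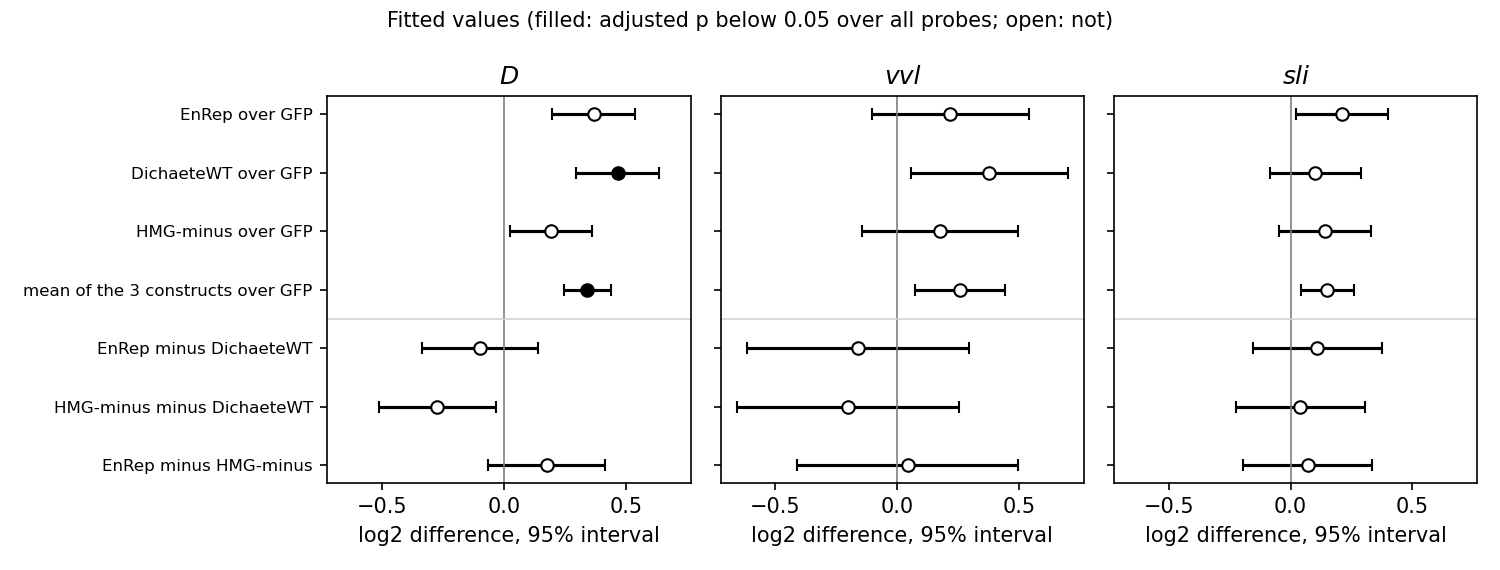
Fitted log2 construct over GFP for D, vvl and sli in each construct and over the 3 constructs together, with 95% intervals from the limma model. D in DichaeteWT embryos (0.47) and D over the 3 constructs (0.34) are the values that passed the adjusted threshold.

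None of the 9 differences between constructs for the members passed in limma, and 1 had an unadjusted p below 0.05. That 1 was D in HMG-minus minus DichaeteWT embryos, at -0.27 log2 (95% interval -0.51 to -0.03, limma adjusted p = 0.903). Of all probes, 0% were called for HMG-minus minus DichaeteWT, 0.0207% for EnRep minus DichaeteWT and 0.0276% for EnRep minus HMG-minus. Unadjusted limma p-values below 0.05 were found for 764, 648 and 992 of the 14485 probes in the same order. Within an orientation the HMG-minus minus DichaeteWT difference of D was -0.39 with the construct in Cy3 and -0.16 with it in Cy5, each from 2 arrays against 2. EnRep minus DichaeteWT for D was -0.10 log2 (95% interval -0.34 to 0.14, limma adjusted p = 0.997), with -0.34 in the Cy3 orientation and 0.14 in the Cy5 orientation. EnRep minus HMG-minus for D was 0.17 log2 (95% interval -0.06 to 0.41, limma adjusted p = 0.807).

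For vvl the differences were -0.16 log2 for EnRep minus DichaeteWT (95% interval -0.61 to 0.29), -0.20 for HMG-minus minus DichaeteWT (-0.66 to 0.25) and 0.04 for EnRep minus HMG-minus (-0.41 to 0.50). The intervals of vvl were the widest of the 3 members. For sli they were 0.11 (-0.16 to 0.37), 0.04 (-0.23 to 0.30) and 0.07 (-0.19 to 0.34). The limma adjusted p-values of vvl and sli in the 3 differences ranged from 0.915 to 0.997. The order of the constructs by fitted value was DichaeteWT, EnRep, HMG-minus for D and for vvl, and EnRep, HMG-minus, DichaeteWT for sli, with no neighbours in either order shown to differ.

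No pair of members showed a relation over the arrays that passed its test. Each pair was compared within a dye orientation, 6 relations in all, by exact permutation tests (two-sided). With loess, the strongest was vvl with sli with the construct in Cy5, where arrays with more vvl had less sli. Pearson's r was -0.72 (n = 6, exact permutation p = 0.0917, adjusted over the 6 relations 0.55) and Spearman's rho was -0.83 (exact permutation p = 0.0583, adjusted 0.35). Without the 2 arrays farthest from the vvl median r was -0.94. The same pair had r = -0.27 with the construct in Cy3 (exact permutation p = 0.676). D with vvl had r = -0.34 in the Cy3 orientation and 0.0026 in the Cy5 orientation (exact permutation p = 0.554 and 0.997). In the Cy5 orientation that r was 0.95 with median centring (exact permutation p = 0.0181, adjusted 0.108) and 0.80 with the deposited ratios (0.0306, adjusted 0.183), which is more than the vvl and sli relation. D with sli had 0.48 and -0.15 (exact permutation p = 0.322 and 0.749), and the first of these was -0.14 without the 2 arrays farthest from the D median.

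Genes whose pattern over the 12 arrays was most like each member were listed as a description only, by Pearson's r of ratios with the dye term removed, among 6227 single-gene probes above the median of mean signal. The arrays share a platform, and the values of a gene pair share each array's normalisation. D was most like CG14377 (r = 0.87), CG31075 (0.85) and CG2816 (0.85). On the deposited ratios those fell to 0.53, 0.54 and 0.43, so the likeness to D was weaker with the authors' processing. vvl was most like CG3097 (0.94), the scavenger receptor gene crq of haemocytes (0.93) and the head gap gene btd (0.92), with 0.87, 0.83 and 0.87 on the deposited ratios. The rank correlations of these 3 with vvl were 0.73, 0.63 and 0.69, lower than r, and DichaeteWT replicate 3 is the array where vvl was highest. sli was most like Cdc5, a spliceosome gene (0.94), Ubr1, a ubiquitin ligase gene (0.90), and CG10321 (0.90), with 0.92, 0.96 and 0.87 on the deposited ratios.

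The other genes of the families and pathways were read from 7 lists covering 46 genes and 48 probes. None of these probes was called by limma in a single construct, and unadjusted p-values below 0.05 were found for 6 in EnRep, 9 in DichaeteWT and 7 in HMG-minus embryos. Among all 14485 probes such p-values were found for 2038, 2253 and 1884 in the same order, so the counts of the lists lie near that background. The DNA-binding partners come first. The Sox family, with D itself left out, had 7 of 7 genes measured and medians of -0.06 log2 in EnRep, -0.09 in DichaeteWT and -0.05 in HMG-minus embryos. Medians of all probes were 0.010, 0.0068 and -0.0022 in the same order. The SoxB gene SoxN, whose protein overlaps with Dichaete in function in the neuroectoderm, had -0.30 in DichaeteWT embryos (limma adjusted p = 0.298) and Sox15 had -0.32 (0.138). The POU family without vvl had 4 of 4 genes measured and medians of 0.01, 0.07 and 0.02. Its pdm2 had 0.13 in EnRep embryos (limma adjusted p = 0.553) and its nub -0.19 in HMG-minus embryos (0.666), both neuroblast factors.

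Among the midline bHLH-PAS factors and relatives 4 of 6 genes were measured, sim and trh not among them, with medians of -0.14 in EnRep, -0.07 in DichaeteWT and -0.13 in HMG-minus embryos. Tango, the common partner of the bHLH-PAS proteins, is encoded by tgo, which had -0.24 in EnRep embryos (limma adjusted p = 0.251). The tracheal relative dysf had -0.21 in HMG-minus embryos (0.332).

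Slit receptors and signalling genes had 10 of 13 genes measured on 11 probes, with medians of 0.11 in EnRep, 0.08 in DichaeteWT and 0.12 in HMG-minus embryos. robo2, robo3 and the adaptor gene dock had no named probe here. Pak, a kinase gene acting downstream of Robo, had 0.30 in HMG-minus embryos, above 0 on 4 of 4 arrays (limma adjusted p = 0.0853). It passed in 3 of 24 alternatives, with adjusted p-values of 0.0239 to 0.635 over them. comm, whose product keeps Robo from the growth cone surface, had -0.29 in DichaeteWT embryos, below 0 on 4 of 4 arrays (0.212).

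Midline primordium and midline glia genes had 11 of 15 genes measured, with medians of -0.05 in EnRep, -0.01 in DichaeteWT and -0.13 in HMG-minus embryos. The segmentation gene gsb had -0.32 in HMG-minus embryos (limma adjusted p = 0.175), and NetB, which encodes the axon attractant Netrin-B, had 0.24 in DichaeteWT embryos (0.153). Of the neuroectoderm genes listed for Dichaete 7 of 8 were measured, with medians of -0.0032, -0.01 and 0.000093. There eve had 0.36 in HMG-minus embryos (limma adjusted p = 0.0624) and ind, which marks the intermediate column, 0.30 in DichaeteWT embryos (0.231). eve passed in 3 of 23 alternatives, with adjusted p-values of 0.0277 to 0.370. Of the tracheal genes listed for vvl 6 of 7 genes were measured on 7 probes, with medians of -0.13, -0.05 and -0.03. The FGF ligand gene bnl had 0.16 on 1 probe (limma adjusted p = 0.454; 0.040 without DichaeteWT replicate 3) and -0.05 on its other probe (0.885) in DichaeteWT embryos, and peb had -0.27 in EnRep embryos (0.392).

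Over the 3 constructs together 6 of the 48 probes were called, beside 10% of all probes. They are named here after their values were seen. Pak rose by 0.24 log2 (SE 0.04, limma adjusted p = 0.00443), above GFP on 10 of 12 arrays. Tl, the Toll receptor gene, rose by 0.32 (SE 0.08, 0.0312), and the homeobox gene eve by 0.16 (SE 0.05, 0.0436). The dim eve probe did not pass on spots accepted in both channels (limma adjusted p = 0.0925). comm fell by 0.26 log2 (SE 0.06, limma adjusted p = 0.0222), below GFP on 10 of 12 arrays. tgo fell by 0.20 (SE 0.05, 0.0294), though on 7 of 12 arrays only, and gsb by 0.20 (SE 0.06, 0.0457), on 8 of 12. These array counts were made with the dye left in. The dye terms of tgo (0.27, limma adjusted p = 0.00173) and gsb (-0.21, 0.0121) were called. The call of Pak remained when any 1 array was left out, with limma adjusted p-values of 0.00428 to 0.0166, and ended with no dye term (0.0949). The calls of comm, tgo, Tl, gsb and eve ended without single arrays, the lowest and highest values being -0.30 and -0.22 for comm, -0.22 and -0.16 for tgo, 0.26 and 0.38 for Tl, -0.23 and -0.16 for gsb, and 0.14 and 0.19 for eve. Over all alternatives comm ran from -0.42 with median centring to -0.15 with print-tip loess, gsb from -0.34 to -0.10 with the same settings, tgo from -0.32 with median centring to -0.16, Tl from 0.21 with median centring to 0.40, and eve from 0.10 with no background correction to 0.21. The lists were written with results of these data known and are no independent evidence of direction.

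Genes next to the members on the chromosome were looked up in the RefSeq gene table, 3 on each side. D lies beside Sox21b and Sox21a, other SoxB genes. Of the 18 neighbours 16 had a probe and 0 were called by limma in any construct, with 8 of 48 tests at an unadjusted p below 0.05. Rif1, beside sli, gave 3 of these 8. Of all 14485 probes, 2038 in EnRep, 2253 in DichaeteWT and 1884 in HMG-minus embryos had such a p, so the count of the neighbours lies near that background. The ratios of the neighbours ran from -0.58 for Rif1 in HMG-minus embryos to 0.29 for saturn, near D, in HMG-minus embryos, and the smallest limma adjusted p was 0.116. Sox21b had 0.16 in EnRep, 0.07 in DichaeteWT and 0.05 in HMG-minus embryos, and Sox21a had -0.17, 0.06 and 0.16.

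Marker lists of other tissues and stages differed between some groups or between single arrays. Maternal transcripts, with 6 of 9 genes measured on 7 probes, had a median of 0.70 log2 in HMG-minus embryos. There all 7 probes were above GFP and 2 were called, both of osk, beside 0.856% of all probes. Of the 7 probes 1 was accepted in both channels on all arrays. The median of the list was -0.02 in EnRep and 0.02 in DichaeteWT embryos. On single arrays it ran from 0.30 to 1.03 in HMG-minus embryos, against -0.37 to 0.32 in the others. Later muscle and cuticle genes had medians of -0.02 in EnRep, 0.20 in DichaeteWT and -0.29 in HMG-minus embryos. The fitted values of all 8 probes were above GFP in DichaeteWT embryos, and none was called. The DichaeteWT arrays disagreed, with list medians of 0.32, 1.41, -0.38 and -0.59 on replicates 1 to 4. In EnRep embryos the list medians were -0.52, -0.41, -0.29 and 1.32. Of these 8 probes 3 were accepted in both channels on all arrays. Amnioserosa and dorsal ectoderm genes were lower than GFP for 6 of 6 genes in each construct, with medians of -0.17, -0.10 and -0.17, and 2 were called over the 3 constructs together. Mesoderm genes, with 3 of 5 measured, had -0.20, -0.13 and -0.13. Of them twi was called over the 3 constructs together (-0.29 log2, limma adjusted p = 0.0217) and htl was not (-0.16, 0.188). The third, sna, lay near 0 in each construct (0.01, -0.005 and -0.05). The part of these differences in the values of D, vvl and sli was not tested beyond leaving out the arrays named above. Blood cell markers, with 5 of 5 genes measured on 6 probes, had medians of -0.02, -0.05 and -0.12, and germ cell markers, with 3 of 5 measured, 0.07, 0.06 and 0.18.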

How the data were processed

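Per the file headers, the deposited array files give median foreground and local background intensity per spot in Cy3 and Cy5, quantified with Dapple and not normalised. The deposited value table holds the authors' log2 ratios of construct over GFP, centred near 0 (column medians -0.034 to 0.019); the submitters' processing notes name limma, and the background correction and normalisation behind these values are not given in the sources used here. The intensities were taken through R 4.3.3 and limma 3.58.1, with normexp background correction (offset 50) on all 18240 spots and global loess within each array. The 14569 spots of the value table were used, averaged to 14485 probes, and the other 3671 were not analysed here. Own and deposited ratios correlated at 0.87 to 0.96 per array.

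The limma model had a mean per construct and 1 dye term (+1 with the construct in Cy5, -1 in Cy3) over all 12 arrays, with empirical Bayes variances, 8 residual and 4.6 prior degrees of freedom. Two-sided p-values received Benjamini-Hochberg adjustment across all probes, with a threshold of 0.05. It was tested on simulated data. The number of arrays limits the precision. Same-numbered arrays of different constructs, once the dye was removed, correlated at -0.64 to 0.24, with 2 of 12 pairs over 0.1. With the dye left in, they correlated at -0.27 to 0.52. Each replicate number occurs in 1 dye orientation only, so these values cannot decide whether the numbers paired the samples. Named beside the members were, from each list, all members called in a single construct or else the 2 with the smallest p, and the 3 genes most like each member. The members, lists and rules were chosen with earlier results of these data known. Gene names come from the platform annotation, updated through a RefSeq table (Release 6 plus ISO1 MT), which served for names and neighbours only. Alternatives changed background correction, normalisation, probe filter, dye term, block, arrays and variance, or used the deposited ratios.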

Additional observations from a re-analysis of the deposited data

How the results depend on the processing

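D kept its direction against GFP in each construct and over the 3 constructs under all alternatives. Its DichaeteWT value was 0.34 (limma adjusted p = 0.114) with median centring, 0.47 with no dye term (0.621), with a replicate block in place of the dye term (0.0549), with a trended and robust variance (0.1) and in a fit of its own 4 arrays (0.0746), and 0.40 (0.0724) without the 2 arrays rich in later muscle and cuticle genes. Leaving out single arrays gave 0.40 to 0.53. The replicate block changed no other call of D, vvl or sli against GFP. D in EnRep embryos passed with no background correction (0.36, 0.0359), without the dimmest 25% of probes (0.37, 0.0464) and on spots accepted in both channels (0.37, 0.046), and single omissions gave 0.31 to 0.42. Without DichaeteWT replicate 3 it passed as well (0.37, 0.0447). It was 0.12 with median centring (0.475) and 0.20 on the deposited ratios (0.178). The mean of D over the 3 constructs did not pass with no dye term (0.34, 0.194).

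The mean of vvl passed with print-tip loess (0.24), with the deposited ratios (0.26, 0.0363), without the 2 arrays (0.33, 0.0243) and without EnRep replicate 4 (0.31, 0.026), over 0.18 to 0.31 with single omissions, and that of sli with print-tip loess (0.14). The dye term of sli did not pass with print-tip loess (0.10, 0.0987). D in EnRep minus HMG-minus turned to -0.016 with median centring. Without DichaeteWT replicate 3, vvl turned to 0.068 in EnRep minus DichaeteWT and 0.025 in HMG-minus minus DichaeteWT, and sli to -0.027 in HMG-minus minus DichaeteWT. Over all single omissions these ranged from -0.34 to 0.068, from -0.31 to 0.025 and from -0.041 to 0.11, and vvl in EnRep minus HMG-minus from -0.14 to 0.20. pdm2 in EnRep turned to -0.10 with median centring and to -0.014 on the authors' deposited ratios. Print-tip loess turned the correlations of D with vvl in Cy5 (-0.18), D with sli in Cy3 (-0.085) and Cy5 (0.50), and vvl with sli in Cy3 (0.094), while median centring gave 0.95 for D with vvl in Cy5. The cause was not tested for any of these.

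Called probes numbered 109 in EnRep, 125 in DichaeteWT and 124 in HMG-minus embryos, 3, 0 and 4 in EnRep minus DichaeteWT, HMG-minus minus DichaeteWT and EnRep minus HMG-minus, and 1454 over the 3 constructs. Print-tip loess gave 265, 466, 380, 5 and 3 for the first 5 of these and 2426 over the 3 constructs. With no dye term there were 29, 25 and 23 per construct, 2 for EnRep minus HMG-minus and 401 over the 3 constructs. The replicate block gave 53, 39 and 62 per construct and 2 for EnRep minus HMG-minus. Fits on the arrays of the constructs compared gave 4, 63, 248 and 2 for the same comparisons. A trended and robust variance gave 9, 6 and 9 per construct, 1 for EnRep minus DichaeteWT and 2 for EnRep minus HMG-minus. Median centring gave 76 in HMG-minus embryos and 2231 over the 3 constructs, and the deposited ratios gave 65 in DichaeteWT embryos, 19 of them higher and 46 lower. Without the 2 arrays there were 185 in EnRep and 311 in HMG-minus embryos. For EnRep minus HMG-minus there were 2 with no background correction, 1 without the dimmest probes and 1 on accepted spots. Single omissions gave 21 to 202 in EnRep, 16 to 235 in DichaeteWT, 17 to 238 in HMG-minus embryos, 2 to 4, 0 to 2 and 2 to 14 in the 3 differences, and 767 to 1652 over the 3 constructs. The arrays left out for later muscle and cuticle genes, and the deposited ratios for the likeness of genes, were chosen after seeing the data. The vvl and sli spots, with medians of 3.52 and 4.25 times their background, were nearer to it than the D spot.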
